A study of Rattus norvegicus with 12 samples.

Results

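The miR-99, miR-100 and miR-125 families were described in small RNA libraries from the hippocampus of 12 rats. Members were chosen by name, as the 5p and 3p arms of miR-99a, miR-99b, miR-100, miR-125a and miR-125b in the count files, and 10 of the 753 mature miRNAs listed were taken. These were rno-miR-99a-5p, rno-miR-99b-5p, rno-miR-100-5p, rno-miR-125a-5p and rno-miR-125b-5p, together with rno-miR-99a-3p, rno-miR-99b-3p, rno-miR-125a-3p, rno-miR-125b-1-3p and rno-miR-125b-2-3p, where rno stands for the rat and is left off below. The name rule also matched miR-100-3p, which was not on the list of members and had 0 reads in all 12 libraries.

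All rats were Sprague Dawley males of 70 to 80 days after birth (P70 to P80), injected with 4 g/kg ethanol or with vehicle 3 h before tissue was taken. The labels name no genetic modification in either group. Libraries of 4 vehicle rats and 8 ethanol rats were analysed, 1 per rat. The study describes 8 rats per group, and the remaining vehicle rats were not analysed here. Labels name the tissue as right hippocampus where the paper names it as dorsal hippocampus, and rats are named below by group and by the animal number in the labels.

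MicroRNAs are short RNAs that pair with messenger RNAs through their seed, bases 2 to 8 from the 5′ end, and lower the amount of protein made from them. Each is cut from a hairpin whose arms give a 5p and a 3p product, and usually one arm is loaded into the silencing complex while the other is degraded. The miR-125 family is the mammalian counterpart of lin-4, the first miRNA found in the worm, and the miR-99 and miR-100 family is among the oldest in animals. Members of both families lie beside a let-7 hairpin in the genome. In neurons miR-125a and miR-125b are known for acting on synaptic proteins, PSD-95 and the NMDA receptor subunit NR2A among them, and miR-99a and miR-100 for acting on the kinase mTOR.

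Mature sequences from the RefSeq annotation of rat assembly GRCr8 are shown 5′ to 3′, with the seed in capitals, since family members share it. Of the 10 members, 9 were matched by name. The member with no entry was miR-99a-5p.
miR-99b-5p: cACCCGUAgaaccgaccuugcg
miR-100-5p: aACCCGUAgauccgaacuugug
miR-125a-5p: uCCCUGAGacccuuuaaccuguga
miR-125b-5p: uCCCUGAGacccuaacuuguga
miR-99a-3p: cAAGCUCGuuucuaugggucug
miR-99b-3p: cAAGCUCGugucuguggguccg
miR-125a-3p: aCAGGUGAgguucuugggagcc
miR-125b-1-3p: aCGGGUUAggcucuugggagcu
miR-125b-2-3p: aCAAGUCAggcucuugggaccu

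The miR-99b-5p and miR-100-5p sequences shared the seed ACCCGUA and 18 of 22 bases. Counted from 1 at the 5′ end and with the base of miR-99b-5p first, they differed by C1A, A11U, C16A and C21U, so every difference was outside the seed. Both 5p members of the miR-125 family had the seed CCCUGAG and the same first 13 bases, and were 24 bases (miR-125a-5p) and 22 bases (miR-125b-5p) long. That seed was also found in miR-351-5p, the only other mature miRNA of the sequence table with it. The 3p arms of miR-99a and miR-99b shared the seed AAGCUCG and 19 of 22 bases, and differed by U10G, A14G and U21C. The 3p arms of the miR-125 hairpins each had a seed of their own. Those of miR-125b-1 and miR-125b-2 were identical at 18 of 22 bases, and G3A, G4A and U7C, with the base of miR-125b-1-3p first, fell inside the seed.

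In GRCr8 the hairpins formed 3 clusters. The Mir99a gene was followed by Mirlet7c1 and Mir125b2, all inside the noncoding gene LOC103693508. Mir99b was followed by Mirlet7e and Mir125a, all inside Spaca6. Mir100 was followed by Mirlet7a-2 and Mir125b1, inside Mir100hgl and Lnc215. The mature miR-125b-5p is therefore the product of 2 hairpins in different clusters, whereas its 3p arms tell these hairpins apart. The submitters' processing notes name build rn5, so coordinates of GRCr8 are not given.

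Library totals ranged from 1960704 to 4917928 reads, and a count of 3, taken as the floor, was 0.61 to 1.53 CPM (counts scaled to a common library total), which covers counting error only. The 10 members held between 4.10% and 7.38% of each library. Counts of the 5p members were fractional in 12 of 12 libraries, as arises when reads that fit more than 1 miRNA are divided between them, so the division between closely related 5p members is uncertain. The counts of miR-125a-3p, miR-125b-1-3p and miR-125b-2-3p were whole in all libraries. Neuronal markers (miR-124-3p, miR-9a-5p, miR-128-3p and miR-138-5p, 4 of 4 listed) summed to 30042 to 38212 CPM. The other lists with reads were choroid plexus (6 of 6 markers, 18435 to 82748 CPM), vascular (4 of 4, 32606 to 67959 CPM), oligodendrocyte (3 of 3, 9333 to 19013 CPM), muscle (5 of 5, 112 to 1766 CPM), and blood (2 of 3, 53.8 to 290.1 CPM, with miR-486 not matched). The liver marker miR-122-5p lay between 0 and 2.46 CPM.

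The libraries of vehicle rats 19 and 20 and ethanol rats 23 and 24, the 4 highest animal numbers, stood apart for these families, and this was seen only once the levels were known. They were the 4 lowest of the 12 libraries for each of the 5 members of the 5p arm. Of the 420 miRNAs retained by a filter on low counts, 8 (1.90%) had these 4 libraries lowest, the 5p members and 3 others, and 0 had them highest. As the 4 rats were picked out by these levels, the difference between them and the other 8 is given as ranges with no test. Labels do not give the set in which a library was sequenced or the day on which a rat was handled, so animal number and any such set cannot be told apart. Their totals were 3131593 to 4917928 reads. Of the other 8 libraries only that of ethanol rat 15, with 3598771 reads, reached this range, and the next had 3018637 (vehicle rat 9). The 4 libraries were thus among the deepest, and an effect of depth was not tested. Each of the 7 marker lists overlapped between these 4 and the other 8 libraries. These libraries are a larger share of the vehicle than of the ethanol rats, so they weigh more on the vehicle mean. Ethanol is compared with vehicle below with and without these libraries.

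The order of the levels began with miR-99b-5p, at a mean of 25859 ± 7151 CPM (SD, n = 12 rats). It ranked 10 of 753 miRNAs. The second, miR-125a-5p from the same cluster, had 15862 ± 2301 CPM and ranked 16. Although their ranges overlapped, miR-99b-5p was above miR-125a-5p in 12 of 12 libraries, by 1.21 to 1.96 times.

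Next in order were miR-100-5p, with 5907 ± 1473 CPM, and miR-99a-5p, with 5365 ± 1058 CPM. These neighbours did not differ beyond their spread: miR-100-5p was the higher in 10 of 12 libraries, and their ratio ran from 0.884 to 1.23. Then followed miR-125b-5p, at 3357 ± 401 CPM, and miR-125b-2-3p, at 3062 ± 424 CPM. They also overlapped, with miR-125b-5p the higher in 9 of 12 libraries. The remaining 3p arms were far lower, in the order miR-125b-1-3p (402 ± 58.4 CPM), miR-99a-3p (65.2 ± 8.05 CPM), miR-99b-3p (48.0 ± 5.57 CPM) and miR-125a-3p (15.5 ± 2.85 CPM). Of these only miR-99a-3p and miR-99b-3p overlapped in range, and miR-99a-3p was the higher in 12 of 12 libraries. All 10 members passed the filter on low counts, and the lowest single count was 32 reads, for miR-125a-3p.

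**Figure D1:**
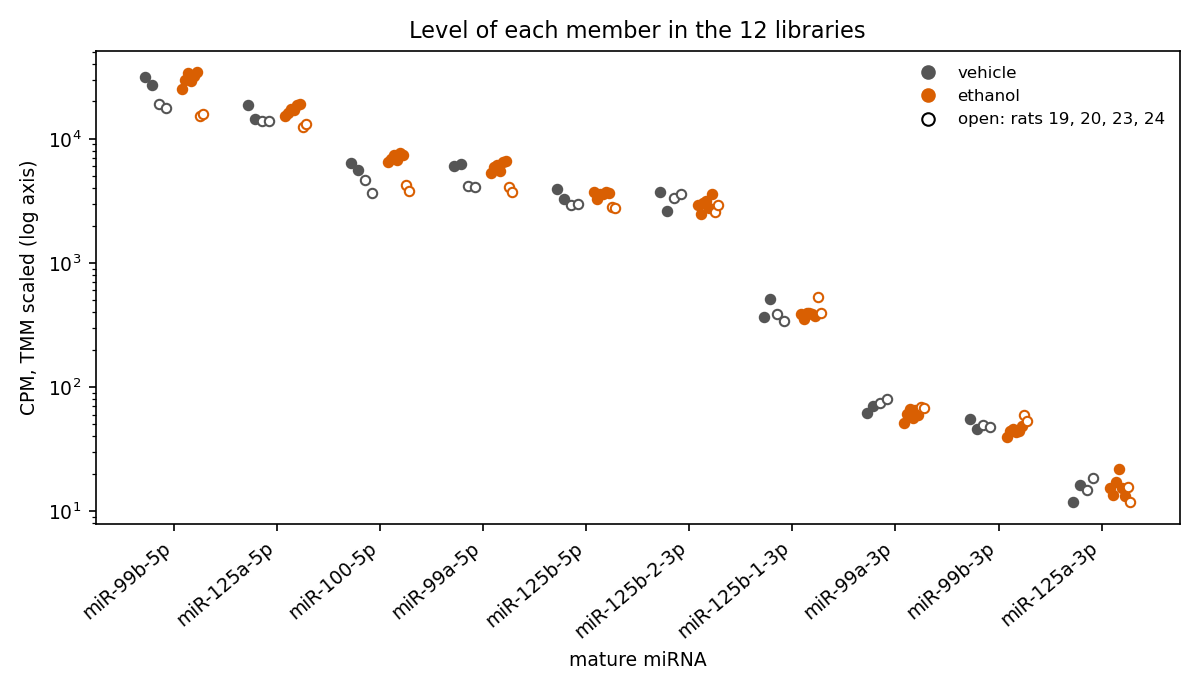
Level of each of the 10 members in each library, in CPM on a log axis, with vehicle in grey and ethanol in orange; open points are rats 19, 20, 23 and 24. The 5p members miR-99b-5p and miR-125a-5p lie highest, at means of 25859 and 15862 CPM, and miR-125a-3p lowest, at 15.5 CPM, and the open points are the lowest for the 5p members.

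The miR-99b-5p level, the most abundant of the families, was 31370 and 27031 CPM in vehicle rats 9 and 10, and 18884 and 17698 CPM in vehicle rats 19 and 20. Among ethanol rats the lowest was 15186, the median 29537 and the highest 34334 CPM, with 15186 and 15836 CPM in rats 23 and 24. The 8 libraries other than these 4 covered 25052 to 34334 CPM, so a gap separated them from the 4 in both groups.

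For miR-100-5p, which shares the seed of miR-99b-5p, the vehicle rats 9, 10, 19 and 20 had 6426, 5647, 4668 and 3630 CPM. Ethanol rats had a lowest level of 3764, a median of 6802 and a highest of 7616 CPM, with rat 23 at 4217 CPM and rat 24 lowest. The other 8 libraries ranged from 5647 to 7616 CPM. Again the 4 libraries lay below all others, and rats 3, 4, 7, 8, 15 and 16, which are 6 of 8 ethanol rats, lay above all vehicle rats.

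For miR-99a-5p the vehicle rats 9, 10, 19 and 20 had 6002, 6231, 4151 and 4105 CPM. The ethanol rats ranged from 3746 to 6596 CPM with a median of 5709, and rats 23 and 24 had 4099 and 3746 CPM. Vehicle and ethanol overlapped, whereas the 4 libraries at 3746 to 4151 CPM did not reach the other 8, at 5316 to 6596 CPM.

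Narrower gaps were seen in the miR-125 family. The miR-125a-5p level was 18831, 14516, 13945 and 13957 CPM in vehicle rats 9, 10, 19 and 20, and 12505 to 18970 CPM (median 16642) in ethanol rats. The 4 libraries covered 12505 to 13957 CPM and the other 8 covered 14516 to 18970 CPM. For miR-125b-5p, vehicle rats 9, 10, 19 and 20 had 3967, 3284, 2952 and 2975 CPM, and ethanol rats had 2778 to 3705 CPM (median 3588). Here the 4 libraries lay at 2778 to 2975 CPM against 3274 to 3967 CPM. The gap was thus present for both seeds of the 5p arms, and relative to the level its edges were closest together for miR-125a-5p.

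The mix of the 5p members differed as well. The miR-99b-5p share of all 5p reads of the families was 39.1% to 42.3% in the 4 libraries and 44.8% to 49.6% in the other 8. The miR-125a-5p share was 31.3% to 33.4% against 25.3% to 28.3%. The miR-125b-5p share was 6.62% to 7.24% against 5.17% to 6.61%, which all but met. Shares of miR-99a-5p and miR-100-5p overlapped between the 4 libraries and the others.

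The 3p arms showed no such gap. Levels of miR-99a-3p were 67.2 to 80.2 CPM in the 4 libraries and 51.0 to 70.6 CPM in the other 8, and those of miR-99b-3p were 47.9 to 59.7 and 39.4 to 54.8 CPM. The ranges of miR-125b-2-3p were 2592 to 3599 and 2490 to 3737 CPM. None of the 3p members had these 4 libraries at either end.

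The let-7 neighbours in the clusters, regulators of developmental timing and of differentiation, did not show the gap either. Levels of let-7c-5p, the neighbour of miR-99a and miR-125b-2, were 4211 to 4961 CPM in the 4 libraries and 3390 to 4713 CPM in the other 8. Those of let-7e-5p, between miR-99b and miR-125a, were 1279 to 1484 and 1265 to 1736 CPM. For let-7a-5p, which other hairpins also make, they were 36176 to 45790 and 33505 to 47568 CPM. The let-7c-2 hairpin likewise makes let-7c-5p, so the let-7c-5p level is not that of the miR-99a cluster alone. The 3p arms let-7c-1-3p and let-7e-3p, at 1.28 to 4.45 and 15.4 to 22.8 CPM over all libraries, overlapped too, and let-7a-2-3p had 0 to 6 reads and was not retained.

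The miRNA that shares the miR-125 seed but was not taken by the name rule, miR-351-5p, had 1924 to 2385 CPM in the 4 libraries and 1925 to 2879 CPM in the other 8. It thus overlapped between them, unlike miR-125a-5p and miR-125b-5p. Its mature sequence is shown with the seed in capitals, to be set beside those of miR-125a-5p and miR-125b-5p.
miR-351-5p: uCCCUGAGgagcccuuugagccuga

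**Figure D2:**
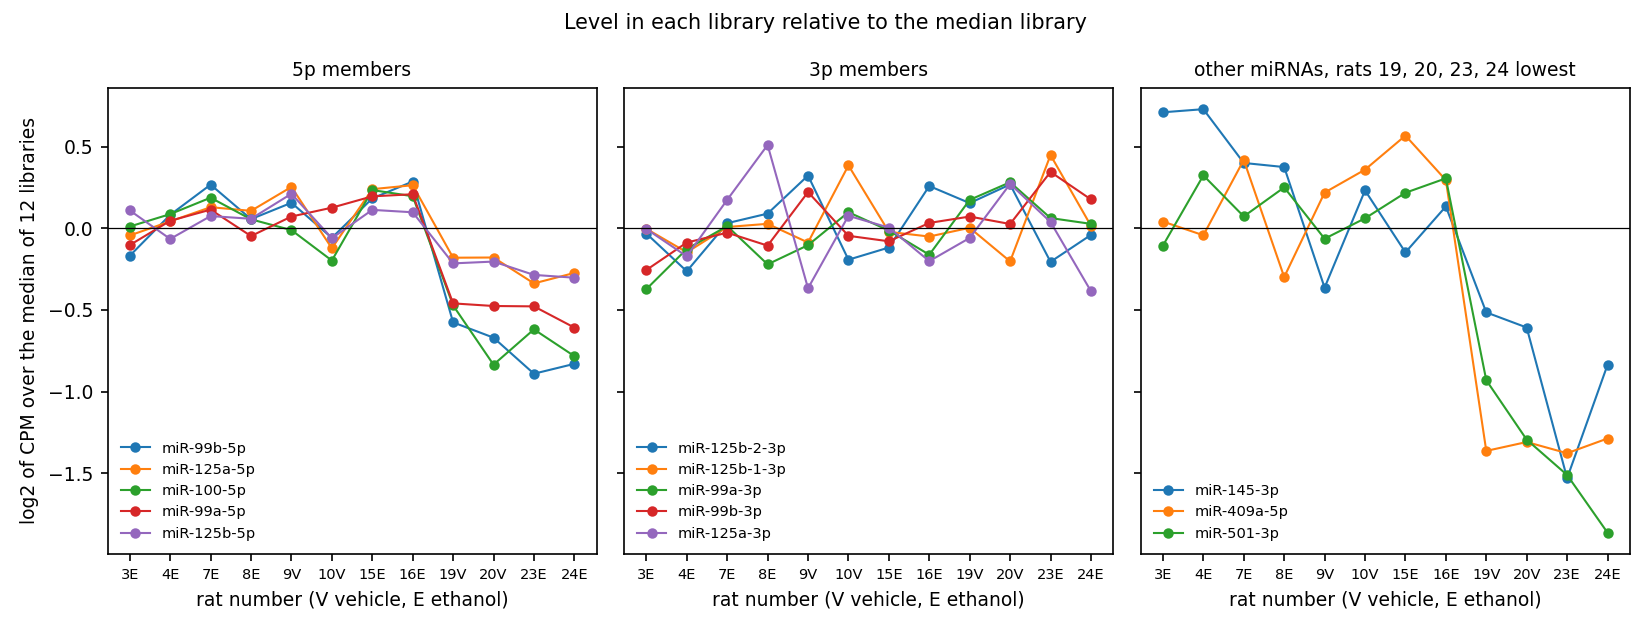
Level in each library as log2 of CPM over the median of the 12 libraries (y axis), with rats in order of animal number (x axis, V for vehicle and E for ethanol), for the 5p members, the 3p members and the 3 other miRNAs in which rats 19, 20, 23 and 24 were lowest; lines join the rats to guide the eye. The 5p members and the 3 other miRNAs are lowest in these 4 rats, and none of the 3p members are.

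The 3 other miRNAs with these libraries lowest were miR-409a-5p, miR-501-3p and miR-145-3p. The miR-409a-5p product, from the imprinted miR-379/410 cluster, had 95.2 to 101.3 CPM in the 4 libraries and 201.0 to 366.4 CPM in the other 8. The miR-501-3p level, a miRNA known for acting on the glutamate receptor subunit GluA1, was 6.17 to 11.8 CPM against 20.9 to 28.1 CPM, from as few as 21 reads. Values of miR-145-3p, the minor arm of a vascular smooth muscle miRNA, were 8.53 to 17.2 CPM against 19.2 to 40.9 CPM.

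By Pearson's r of log2 CPM over the 12 libraries, the 3 non-members most like each of the 5p members were the same, miR-409a-5p, miR-501-3p and miR-24-3p, in varying order. For miR-99b-5p the r values were 0.94, 0.96 and 0.88 over the 12 libraries, which include the 4 low ones, and 0.42, 0.47 and 0.82 within the other 8. The miR-24-3p level, from a cluster with miR-23 and miR-27, ranged from 3285 to 3837 CPM, and its 4 lowest libraries were not exactly these 4. Among the 410 retained non-members the median r with miR-99b-5p was -0.042.

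A short run of letters, ACCCG, was noticed in the sequences after these values were known. It occurred on the mature strand of 8 of 389 retained miRNAs with a sequence (2.06%) and of 8 of all 693 mature names in the table (1.15%). Among those 8, the 4 libraries were lowest for miR-99b-5p, miR-100-5p, miR-409a-5p and miR-501-3p. They were not lowest for miR-342-3p (465 to 552 CPM in the 4 libraries and 447 to 542 CPM in the others), miR-3546, miR-1193-3p and miR-1247-5p. The letters were absent from miR-125a-5p, miR-125b-5p and miR-145-3p, which had the 4 libraries lowest. The remaining miRNA with these libraries lowest, miR-99a-5p, had no sequence to examine. The match is a description of the letters alone. Of these sequences, 2 with the 4 libraries lowest and 1 without are shown, with the run in capitals.
miR-409a-5p: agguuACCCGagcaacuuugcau
miR-501-3p: aaugcACCCGggcaaggauuugg
miR-342-3p: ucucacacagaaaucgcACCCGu

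The arms of the hairpins were compared as reads of the 5p arm per read of the 3p arm, which does not depend on library scaling. For all members together, 5p arms held 91.2% to 95.5% of the reads. The ratio was largest for miR-100, with at least 12819 reads of the 5p arm per library and 0 of miR-100-3p. Against the floor of 3 reads per library, miR-100-5p was at least 4273-fold to at least 9243-fold higher than its 3p arm, depending on the library. The miR-100-3p sequence is 19 bases long, below the size range that the authors' methods give for gel purification. Whether this bears on its 0 reads was not tested.

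Next was miR-125a, at 754 to 1584 reads of the 5p arm per read of the 3p arm (median 1000.4). The ratio of miR-99b was 254 to 734 (median 615), and that of miR-99a was 51.2 to 112 (median 95.2). Thus the homologous hairpins miR-99a and miR-99b, whose 3p arms differ at 3 bases, did not overlap in ratio. Counts of these 5p arms were fractional in 12 of 12 libraries, so their ratios carry the uncertainty of dividing reads.

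Only miR-125b had arms of like abundance in the counts. Counts of miR-125b-5p were fractional and those of its 3p arms whole in all libraries, so its ratios carry the uncertainty of dividing 5p reads. Set against the sum of both 3p arms, miR-125b-5p had a ratio of 0.755 to 1.18, and the 3p arms together had more reads than the 5p arm in 7 of 12 libraries. Rats 19, 20, 23 and 24 were among these 7. Against miR-125b-2-3p alone it was 0.827 to 1.35, with the 3p arm ahead in vehicle rats 19 and 20 and ethanol rat 24. Against miR-125b-1-3p it was 5.28 to 10.8. The product of the hairpin beside miR-99a, miR-125b-2-3p, thus exceeded the product of the hairpin beside miR-100, miR-125b-1-3p, by 4.87 to 10.6 times (median 7.65).

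In rats 19, 20, 23 and 24 the ratio of miR-99a was 51.2 to 59.5, against 88.2 to 112 in the other 8 libraries. That of miR-99b was 254 to 382 against 571 to 734, and that of miR-125b over both 3p arms was 0.755 to 0.900 against 0.928 to 1.18. The ratio of miR-125a overlapped, at 754 to 1113 against 779 to 1584, where as few as 32 reads of the 3p arm stood below the line.

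**Figure D3:**
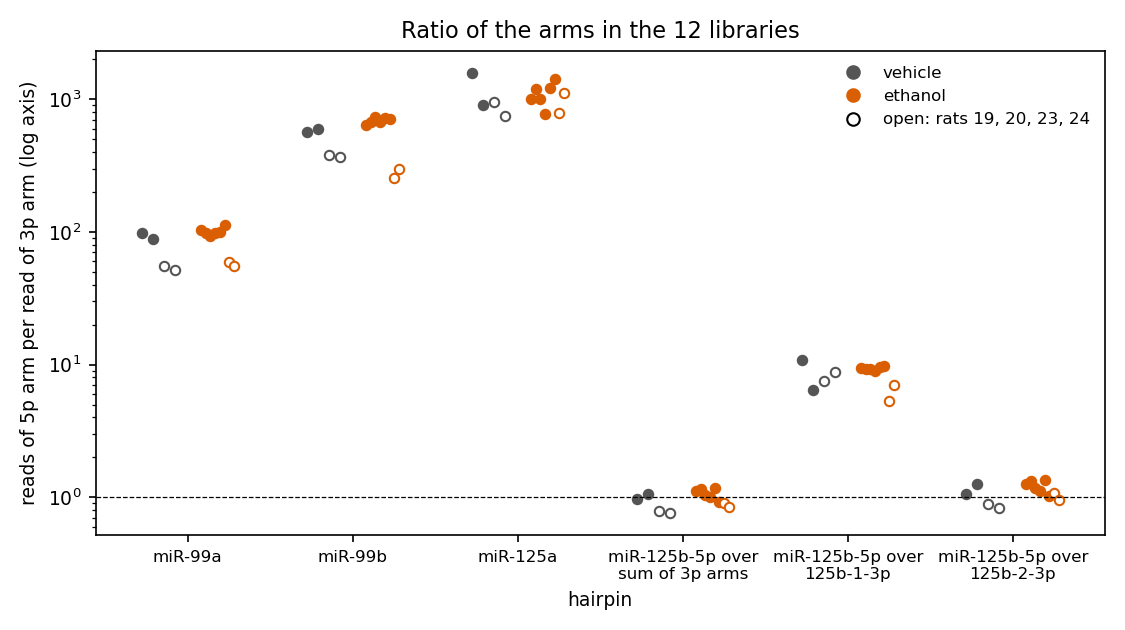
Reads of the 5p arm per read of the 3p arm in each library (log axis) for each hairpin, with vehicle in grey, ethanol in orange and open points for rats 19, 20, 23 and 24; the dashed line marks equal arms. For miR-125b the points scatter around equality (0.755 to 1.18 over the sum of its 3p arms), while for miR-99a and miR-99b the open points lie below all filled ones.

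Whether ethanol changed the balance of the arms was tested on the log2 ratio by 2-sided exact permutation tests over all 495 splits into 4 and 8 rats, with Benjamini-Hochberg adjustment over 6 ratios. The difference, ethanol minus vehicle, was 0.31 for miR-99a (exact permutation p = 0.222, adjusted 0.444), 0.23 for miR-99b (exact permutation p = 0.519), 0.054 for miR-125a (exact permutation p = 0.810) and 0.20 for miR-125b over both 3p arms (exact permutation p = 0.131). Against miR-125b-1-3p and miR-125b-2-3p alone, the exact permutation p was 0.881 and 0.125. None passed after adjustment, the lowest adjusted value being 0.394.

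With splits restricted to rats of like number, every split kept 2 of the 4 low libraries as vehicle and 2 as ethanol. These are 2 of 4 vehicle and 2 of 8 ethanol rats, so they still weigh more on the vehicle mean. The exact permutation p of miR-99a was then 0.0476, and no ratio passed after adjustment (lowest 0.190). The miR-99a ratio was 51.2 to 98.0 in vehicle and 55.7 to 112 in ethanol rats, and without the 4 libraries its difference was 0.11 on the log2 scale (exact permutation p = 0.250). In the remaining libraries, of 2 vehicle and 6 ethanol rats, the miR-99b ratio was 571 and 594 in vehicle and 636 to 734 in ethanol rats. That difference was 0.24 on the log2 scale with an exact permutation p of 0.0357, the smallest that 28 splits allow, and 0.214 after adjustment. The 4 libraries were picked by levels that enter these ratios, and both treatments of them were chosen after those levels were seen. Neither the exact permutation p of 0.0476 for miR-99a nor that of 0.0357 for miR-99b is therefore a finding.

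Co-variation of the members over rats was given within the 8 libraries other than rats 19, 20, 23 and 24, since the 12 libraries fall into separate clusters for the 5p members. Of 21 pairs, 0 passed Benjamini-Hochberg adjustment (lowest adjusted 0.157), and 6 had a raw permutation p under 0.05. The pair with the highest r was miR-99b-5p and miR-125a-5p, of 1 cluster (r = 0.83, exact permutation p = 0.0115; rho = 0.86, exact permutation p = 0.0107). Without the 2 libraries farthest from the median of miR-99b-5p, r was 0.58.

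Other pairs of one cluster were less alike. Between miR-99a-5p and miR-125b-5p r was 0.0053 (rho = 0.14, exact permutation p = 0.991 and 0.752), and between miR-100-5p and miR-125b-5p it was 0.33 (rho = 0.14, exact permutation p = 0.423 and 0.752). In both pairs the miR-125b-5p level sums the products of both clusters. The pairs miR-99a-5p with miR-99b-5p, miR-99b-5p with miR-100-5p and miR-100-5p with miR-125a-5p, which are not of one cluster, each had r of 0.72 (exact permutation p = 0.0433, 0.0433 and 0.0424). Without the 2 libraries farthest from the median of the first of each pair, their r was 0.41, 0.65 and 0.31. Pairs of one cluster that included a 3p arm had negative r. It was -0.26 for miR-99a-3p with miR-125b-2-3p (exact permutation p = 0.533) and -0.52 for miR-99b-3p with miR-125a-3p (exact permutation p = 0.171). For miR-100-5p with miR-125b-1-3p it was -0.68 (exact permutation p = 0.0836), and 0.12 without the 2 farthest libraries. Being of one cluster thus did not order the pairs by r. Whether dividing reads between similar 5p members affected their r was not tested.

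The arms of a hairpin were compared in the same way within these 8 libraries. For miR-99a the arms had r of 0.72, for miR-99b 0.60, and for miR-125b-5p with miR-125b-2-3p 0.80 (exact permutation p = 0.0450, 0.113 and 0.0198). Without the 2 farthest libraries these fell to 0.051, 0.29 and 0.51. Leaving out the farthest values narrows the range and can itself lower r, so these falls do not show what the relations rested on. The arms of miR-125a had r of -0.32 and miR-125b-5p with miR-125b-1-3p had -0.44 (exact permutation p = 0.447 and 0.316). Of the let-7 neighbours, let-7c-5p with miR-99a-5p had r of 0.59, and let-7e-5p had -0.41 with miR-99b-5p and -0.57 with miR-125a-5p (exact permutation p = 0.130, 0.320 and 0.138). The let-7c-5p level includes the product of the let-7c-2 hairpin, outside this cluster. With the marker lists of choroid plexus, vessels, oligodendrocytes and neurons, 0 of 20 pairs with the 5p members passed adjustment (lowest 0.762), and 1 had a raw p under 0.05.

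**Figure D4:**
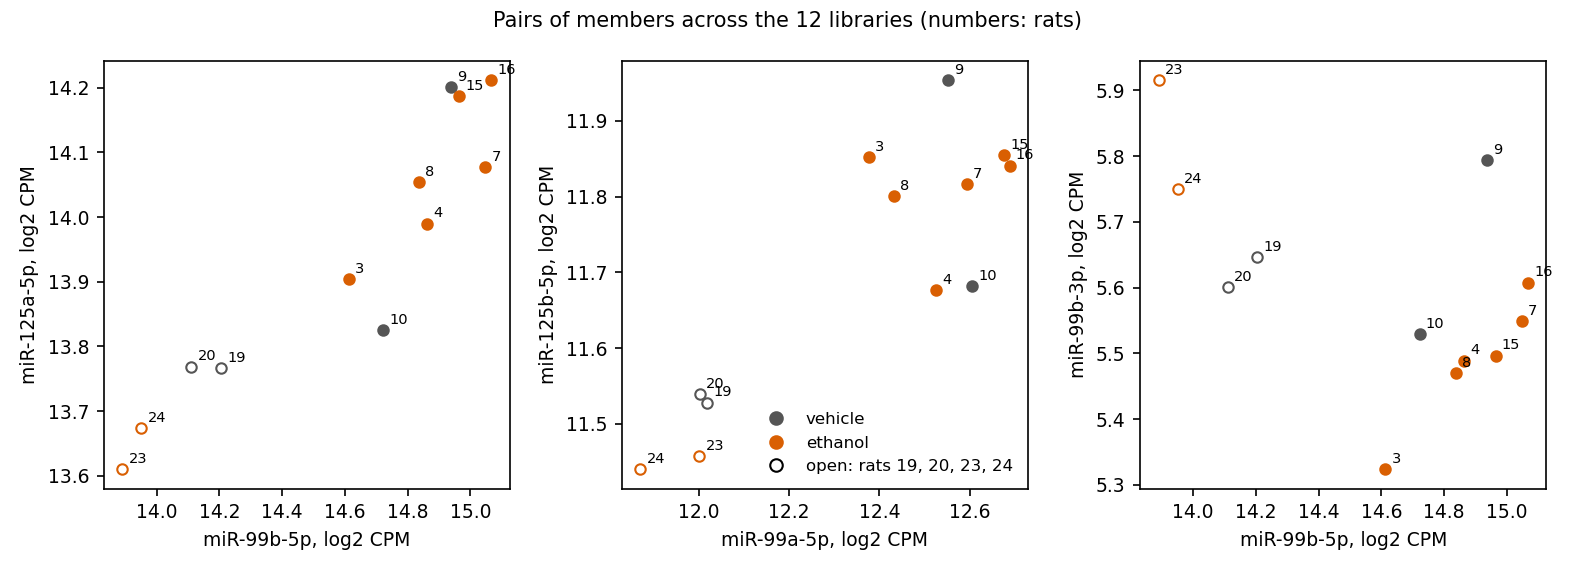
Pairs of members in the 12 libraries as log2 CPM, miR-99b-5p with miR-125a-5p, miR-99a-5p with miR-125b-5p and miR-99b-5p with its own 3p arm, each point a rat with its number, open for rats 19, 20, 23 and 24. The open points lie apart at the low end for the 5p members and not for miR-99b-3p, and within the 8 filled points r was 0.83, 0.0053 and 0.60.

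Ethanol was compared with vehicle to find whether an acute dose changed hippocampal miRNAs. By edgeR's quasi-likelihood test, 0 of the 10 members had an adjusted p under 0.05, against 0 of 420 retained miRNAs (0.0%), where the lowest adjusted p was 0.971. At a raw p under 0.05 the counts were 0 of 10 members and 17 of 420 miRNAs (4.05%). DESeq2 called 1 of 420 miRNAs and limma-trend 0, and neither gave a member a raw p under 0.05. The log2 fold change was above 0 for 7 members and below 0 for 3, beside 46.0% and 54.0% of retained miRNAs, and its median was 0.024 for the members and -0.015 for all retained miRNAs. As tissue was measured in bulk, fewer cells of a type and less RNA per cell cannot be told apart.

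Among the 5p members, miR-100-5p had the largest difference. Its level was 5093 ± 1212 CPM with vehicle (SD, n = 4) and 6315 ± 1487 CPM with ethanol (SD, n = 8), and the log2 fold change was 0.31 ± 0.20 (SE; edgeR adjusted p = 0.971, exact permutation p = 0.222). With a term for rats 19 to 24 added to the edgeR fit it was 0.12 ± 0.091 (adjusted p = 0.985). Without the 4 libraries, 2 vehicle rats (5647 and 6426 CPM) lay below 6 ethanol rats (6524 to 7616 CPM), at 0.23 ± 0.092 (edgeR raw p = 0.0324, adjusted p = 0.810, exact permutation p = 0.0357, the smallest possible). In that fit miR-100-5p was the only one of the 10 members with a raw p under 0.05, beside 20 of 420 miRNAs (4.76%). The 4 libraries were picked by these same levels. The smaller standard error and p-values without them follow in part from that choice and are no finding. The difference was in the same direction in all 3 fits and passed adjustment in none. Over the fits that each omitted 1 rat it ranged from 0.22 to 0.45.

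The other 5p members differed less than their spread. For miR-99b-5p the means were 23746 ± 6561 and 26915 ± 7622 CPM with vehicle and ethanol, at a log2 fold change of 0.18 ± 0.24 (SE; edgeR adjusted p = 0.971). Those of miR-99a-5p were 5122 ± 1152 and 5487 ± 1067 CPM (0.099 ± 0.17). For miR-125a-5p they were 15312 ± 2361 and 16136 ± 2381 CPM (0.076 ± 0.12). Means of miR-125b-5p were 3294 ± 473 and 3388 ± 391 CPM (0.041 ± 0.11). The exact permutation p of these 4 members lay between 0.576 and 0.711. Without the 4 libraries the log2 fold changes were 0.073 ± 0.13 for miR-99b-5p, -0.026 ± 0.10 for miR-99a-5p, 0.049 ± 0.12 for miR-125a-5p and -0.016 ± 0.092 for miR-125b-5p (SE). The sizes depended on single rats: with each rat left out in turn, miR-99b-5p ranged from 0.085 to 0.35, miR-99a-5p from 0.011 to 0.21 and miR-125a-5p from 0.033 to 0.20.

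The term for rats 19 to 24 marks the libraries picked out by these same levels, so a smaller standard error for the 5p members follows from that choice and is no finding. With it, the standard error of miR-99b-5p fell from 0.24 to 0.097, that of miR-99a-5p from 0.17 to 0.070, that of miR-125a-5p from 0.12 to 0.084 and that of miR-125b-5p from 0.11 to 0.063. Their log2 fold changes became -0.053, -0.045, -0.021 and -0.043, so their directions turned. In that fit 0 of 10 members and 11 of 420 miRNAs (2.62%) had a raw edgeR p under 0.05, and 0 of 420 (0.0%) passed adjustment.

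Of the 3p arms, miR-99a-3p came closest to a raw threshold. Vehicle rats 9, 10, 19 and 20 had 61.4, 70.6, 74.4 and 80.2 CPM, and ethanol rats had a lowest of 51.0, a median of 62.9 and a highest of 68.9 CPM. The groups overlapped, with 4 of 8 ethanol rats below all vehicle rats. The log2 fold change was -0.21 ± 0.10 (SE; edgeR raw p = 0.0575, adjusted p = 0.971, exact permutation p = 0.0525), and its raw p ranked 23 of 420. With splits within rats of like number the exact permutation p was 0.0298, and without the 4 libraries the value was -0.14 ± 0.14 (edgeR raw p = 0.335). Both treatments of the 4 rats were chosen after the levels were seen, so neither p-value is a finding. Omitting 1 rat at a time gave -0.27 to -0.12.

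Levels of miR-125b-2-3p, the abundant 3p arm, were 3737, 2615, 3325 and 3599 CPM in vehicle rats 9, 10, 19 and 20, and 2490 to 3575 CPM (median 2914) in ethanol rats. The groups overlapped, at -0.18 ± 0.11 (SE; edgeR raw p = 0.123, exact permutation p = 0.164). Without the 4 libraries the value was -0.085 ± 0.16, and over the fits that each omitted 1 rat it ranged from -0.28 to -0.10. Its counterpart miR-125b-1-3p had 402 ± 74.9 CPM in vehicle and 402 ± 54.4 CPM after ethanol, with a log2 fold change of 0.0034 ± 0.12, which became -0.20 ± 0.13 without the 4 libraries. For miR-99b-3p and miR-125a-3p the values were -0.059 ± 0.11 and 0.0065 ± 0.16, and without the 4 libraries -0.18 ± 0.13 and 0.21 ± 0.23.

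**Figure D5:**
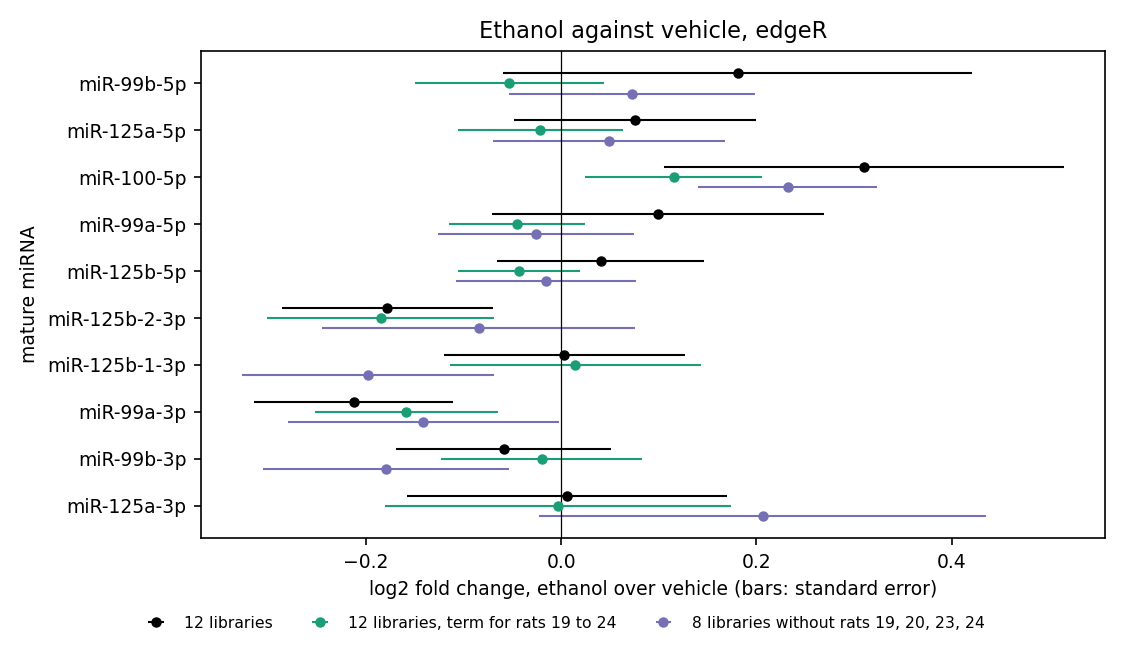
Log2 fold change, ethanol over vehicle, for each member with its standard error as a bar, from edgeR on all 12 libraries (black), with a term for rats 19 to 24 (green) and on the 8 libraries without rats 19, 20, 23 and 24 (purple). The bars of the 5p members are shorter with the term (0.24 and 0.097 for miR-99b-5p), which follows from how the 4 rats were picked, and miR-100-5p stays above 0 in the 3 fits.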

How the data were processed

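Small RNA was measured in 12 rat hippocampi. The deposited files hold, per the labels and their values, estimated counts (expected counts) per mature miRNA for each rat, not scaled to library size. Partek, cutadapt and build rn5 are named in the submitters' processing notes, and the counting method and miRNA annotation are not given in the sources used here. The authors' methods describe 1 µg of total RNA per rat and gel purification. The authors' methods limit the pups taken from a litter for each condition, which leaves room for littermates within a group. No labels give the litter of a rat, so p-values measure the spread between these rats.

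Counts were rounded. A filter removed any miRNA whose count was under 10 reads in at least 10 libraries, and 420 of 753 were retained, with no less than 99.987% of any library's reads. R 4.3.3, edgeR 4.0.16 (TMM, quasi-likelihood, Benjamini-Hochberg), limma 3.58.1 and DESeq2 1.42.0 were used, with log2 CPM at a prior count of 2. Single values were compared by 2-sided exact permutation over 495 splits (smallest p 0.00202), over 168 splits within rats 3 to 16 and rats 19 to 24 (smallest p 0.00595), and over 28 splits of the 8 remaining rats. Arm ratios were log2 after adding 0.5 to each count. Correlations used 40320 exact pairings within the 8 libraries and 100000 permutations over 12.

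The members and lists were chosen with earlier results of these data known. Named miRNAs were the members, miR-100-3p, the let-7 neighbours, the marker lists and, for each 5p member, the 3 retained non-members with the highest r. Outside this rule miR-145-3p, miR-351-5p and the other miRNAs with ACCCG were named after their values were seen, as were the treatments of rats 19, 20, 23 and 24. On simulated counts for ethanol against vehicle (420 miRNAs, 200 changed), edgeR found 55%, 89% and 98.5% of the changes of 0.5, 1 and 2 on the log2 scale. With so many changed at once the adjustment is looser than where few change, and the simulated counts held no set of libraries apart. These shares are therefore not the chance of finding a change in a single member here. Alternatives covered scaling, filters, rounding, tests, a choroid plexus covariate, the added count and each rat left out.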

Additional observations from a re-analysis of the deposited data

Results flagged for a closer look

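In 32 groups of values (10 members and 6 arm ratios, each in vehicle and in ethanol rats), 2 held a rat far from the rest of its group by Dixon's test at the 95% level, where chance gives about 1 in 20. The miR-125a-5p level of vehicle rat 9 (log2 CPM 14.20) was the highest of 4, 13.82 being the next, and this gap took up 0.866 of the range over the vehicle rats. The miR-125b-1-3p level of ethanol rat 23 (log2 CPM 9.06) was the highest of 8, 8.64 being the next, and this gap took up 0.707 of the range over the ethanol rats.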

How the results depend on the processing

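No paired analysis was possible because the groups share no replicate numbers. In ethanol against vehicle, all alternatives for scaling, filter, test, rounding and covariate, and the treatments of rats 19, 20, 23 and 24, left the count of miRNAs with an adjusted p under 0.05 at 0, except the DESeq2 Wald test, with 1, which was no member; with each rat left out the count was 0 to 3, the 3 without ethanol rat 16.
The count of members with a raw p under 0.05 was 0 and became 1 with library totals alone (miR-99a-3p) and without rats 19, 20, 23 and 24 (miR-100-5p), and 0 to 1 with each rat left out: 1 without vehicle rat 9 or ethanol rat 23 (miR-99a-3p), vehicle rat 10 or ethanol rat 16 (miR-125b-2-3p) and ethanol rat 24 (miR-100-5p). The log2 fold changes of members gave 230 values under alternatives, of which 207 kept their direction and 23 reversed, with a lowest adjusted p of 0.807. With the term for rats 19 to 24 the reversed values were -0.045 for miR-99a-5p, -0.053 for miR-99b-5p, -0.021 for miR-125a-5p, -0.043 for miR-125b-5p and -0.0032 for miR-125a-3p. Without rats 19, 20, 23 and 24 they were -0.026 for miR-99a-5p, -0.016 for miR-125b-5p and -0.20 for miR-125b-1-3p. Library totals alone gave -0.035 for miR-125a-3p and -0.036 for miR-125b-1-3p, upper quartile scaling -0.016 and the choroid plexus covariate -0.013 for the latter. With each rat left out, miR-125b-5p ranged from -0.0086 to 0.15, miR-99b-3p from -0.11 to 0.0068, miR-125a-3p from -0.086 to 0.16 and miR-125b-1-3p from -0.065 to 0.14. The log2 fold changes of miR-100-5p, miR-99a-3p and miR-125b-2-3p kept their direction under every alternative run. Of 102 values of arm ratios, 96 kept their direction and 6 reversed, with a lowest adjusted p of 0.145. The ratio of miR-125a was -0.14 without rats 19, 20, 23 and 24 and -0.082 to 0.27 with each rat left out, and that of miR-125b against miR-125b-1-3p was -0.086 to 0.16. Over all 12 libraries 10 of 21 pairs of members had an adjusted p under 0.05 in their correlation, all of them pairs of 5p members, and without rats 19, 20, 23 and 24 the count was 0, with fewer libraries. The cause of these changes was not tested. Depth limits miR-125a-3p most, with 32 to 87 reads per library.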
